A study of Mus musculus with 8 samples.

Results

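The 8 genes described here act on transfer RNA (tRNA): Tprkb, Osgep, Trit1, Trub1, Trub2, Pus1, Pus3 and Pus7. They are 8 of 19938 genes measured in mouse primordial germ cells (PGCs), which later give rise to the gametes. The cells were taken at embryonic day 9.5 from 8 embryos, each sorted on its own. The set was chosen by measured values of these same arrays: Tprkb as higher and Trub1 as lower in mutant than in WT embryos, and Trit1 as rising with somite number. The other 5 were added as related genes. The differences between genotypes and the slopes on somite number are therefore given as a description of these arrays, without a test on the members.

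Each array holds the PGCs of 1 embryo. The 4 WT embryos were Ror2+/+ and had 25, 25, 22 and 21 somites, the paired blocks of mesoderm that are counted to stage embryos. The 4 mutant embryos carried the Y324C change in both copies of Ror2, a receptor tyrosine kinase for Wnt5a, and had 24, 22 to 23, 23 and 21 to 22 somites. Both parents of every embryo were heterozygous for the allele, the strain was mixed, and sires homozygous for an Oct4-ΔPE reporter transgene gave every embryo the GFP by which its PGCs were sorted from the trypsin-digested posterior. Since the allele changes 1 residue, the level of Ror2 does not check the genotype labels. Which embryos were littermates is not stated, so any share of litter in the spread cannot be told apart from the embryo.

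tRNA is modified at many bases after transcription, and the modifications beside and in the anticodon keep decoding accurate. Osgep is the catalytic subunit of the KEOPS complex, which makes threonylcarbamoyl adenosine next to the anticodon, and Tprkb is a small regulatory subunit of the same complex that binds its kinase-like subunit, so Tprkb is itself no enzyme. Trit1 attaches an isopentenyl group to the same anticodon-neighbouring adenosine in another set of tRNAs. Trub1, Trub2, Pus1, Pus3 and Pus7 are pseudouridine synthases, which turn uridine into its isomer pseudouridine. Trub1 acts in the TΨC loop and also on mRNA, Trub2 in mitochondria, Pus1 on several positions of cytosolic and mitochondrial tRNA, Pus3 in the anticodon arm, and Pus7 on tRNA and mRNA.

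The start windows of the genes whose values chose the set are shown with 4 motifs of common promoters. They come from RefSeq (GRCm38.p6), run 5′ to 3′ on the gene's strand from 250 bases before a transcription start to 50 after it, and capitals mark every match, on either strand, of an ETS motif (CCGGAAG), an E-box (CACGTG) or a CCAAT box (CCAAT).
Tprkb, plus strand, chr6:85915469-85915768, the second of its 3 listed windows: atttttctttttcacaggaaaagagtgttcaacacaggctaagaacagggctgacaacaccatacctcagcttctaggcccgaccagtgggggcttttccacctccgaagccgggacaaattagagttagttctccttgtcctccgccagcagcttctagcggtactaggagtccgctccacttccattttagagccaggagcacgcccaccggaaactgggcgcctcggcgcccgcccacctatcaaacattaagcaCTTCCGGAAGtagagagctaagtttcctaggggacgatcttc
Trub1, plus strand, chr19:57452656-57452955: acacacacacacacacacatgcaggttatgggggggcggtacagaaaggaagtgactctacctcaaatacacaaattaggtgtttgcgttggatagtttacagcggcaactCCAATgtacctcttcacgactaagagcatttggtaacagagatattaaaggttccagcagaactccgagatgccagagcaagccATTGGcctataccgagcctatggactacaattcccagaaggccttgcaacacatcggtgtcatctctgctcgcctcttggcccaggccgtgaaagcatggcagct
Trit1, plus strand, chr4:123016343-123016642: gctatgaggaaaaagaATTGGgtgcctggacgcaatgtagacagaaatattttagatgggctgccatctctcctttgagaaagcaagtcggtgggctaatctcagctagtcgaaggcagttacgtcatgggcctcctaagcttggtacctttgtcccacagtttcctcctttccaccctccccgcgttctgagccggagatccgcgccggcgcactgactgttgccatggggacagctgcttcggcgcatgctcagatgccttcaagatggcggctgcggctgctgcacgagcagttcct
In the Tprkb window shown, 2 ETS matches on opposite strands overlap in 1 palindrome close to the start. The window that begins further downstream overlaps it and holds the same site. The first listed Tprkb window held no ETS match and 1 CCAAT box. Of 32851 windows of 300 bases in the table, 8.86% held an ETS match. The Trub1 and Trit1 windows held neither an ETS match nor an E-box, but 2 and 1 CCAAT boxes, a motif found in 37.4% of all windows. The Osgep window held 3 E-boxes, 1 ETS match and 2 CCAAT boxes. An E-box was also found in the windows of Pus1 and Pus3 and in the upstream window of Pus7, and in 7.15% of all windows. The E-box letters hold a CpG, and that share is not matched for CpG number. The Pus3 window held 1 CCAAT box and the Trub2 window none of the 4 motifs. The last motif searched, the letters TATAAA, was in no window of the 8 members and in 13.6% of all windows. The windows of the 8 members held from 2 CpG (the first listed Tprkb window and the downstream Pus7 window) to 44 (Pus3). Over all windows the median was 7 and the quartiles were 3 and 20. The matches describe letters only, and no binding was measured.

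Across the whole series, the median probe of an array lay between 5.37 and 5.58 on the deposited log2 scale. The defining markers of the labelled cells were high: the mean of 15 PGC markers was 9.89 to 10.21 in WT and 10.09 to 10.16 in mutants, while means of primitive erythroid, macrophage, endothelial, hindgut endoderm and trunk mesenchyme markers lay between 4.61 and 6.06. WT 3 stood apart, with the lowest PGC marker mean (9.89) and the smallest SD over genes (1.77, against 1.82 to 1.95 elsewhere). Its erythroid (5.56), macrophage (5.22), trunk mesenchyme (5.51) and hindgut endoderm (6.06) means were the highest of all arrays, the last closely followed by mutant 4 (6.05). WT 3 and mutant 4 also had high Xist (7.07 and 6.31, against 3.50 to 4.11 elsewhere). Their Y-linked means were low (3.74 and 3.71, against 7.21 to 7.73 elsewhere). High Xist with low Y-linked values is the pattern of female embryos. Leaving out WT 3 and mutant 4 together therefore removes both arrays with that pattern. A lower value in sorted PGCs can mean less RNA per cell or fewer cells with the transcript, which cannot be told apart here.

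Tprkb was higher in every mutant than in every WT embryo. Its log2 values were 5.62, 4.80, 5.998 and 4.93 in WT 1 to 4. In mutants 1 to 4 they were 6.64, 6.28, 6.76 and 6.48. The groups were separated by 0.28, between WT 3 and mutant 2, and the WT values were the more scattered. The means were 5.34 ± 0.57 in WT and 6.54 ± 0.21 in mutants (SD, n = 4 each), a difference of 1.20 ± 0.25 (SE), or 2.30-fold. WT 2 and WT 4 lay below the median probe of their arrays (5.48 and 5.49), and Tprkb has 1 probe. Detection was not assessed, so how far the low WT values measure the transcript is not known. Leaving out single arrays gave 1.02 to 1.42, and 1.44 was found without WT 3 and mutant 4. Over all genes, 1.08% had every mutant above every WT value, and since such separation was part of why Tprkb was chosen, its place in that share says nothing further.

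Trub1 showed the opposite order. Its log2 values were 7.22, 6.89, 7.53 and 7.44 in WT 1 to 4. In mutants 1 to 4 they were 6.21, 6.69, 6.29 and 6.42. Every mutant lay below every WT embryo, with a gap of 0.20 between WT 2 and mutant 2. The means were 7.27 ± 0.28 in WT and 6.40 ± 0.21 in mutants (SD, n = 4 each), a difference of -0.87 ± 0.17 (SE), which is 1.83-fold lower in mutants. Leaving out single arrays gave -0.996 (without WT 2) to -0.78 (without WT 3), and -0.79 was found without WT 3 and mutant 4. Over all genes, 1.44% had every mutant below every WT value, and 2.52% were separated in either direction, as 2 of the 8 members were. Those members, Tprkb and Trub1, were chosen by this same contrast, so their place in these shares says nothing further.

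**Figure D1:**
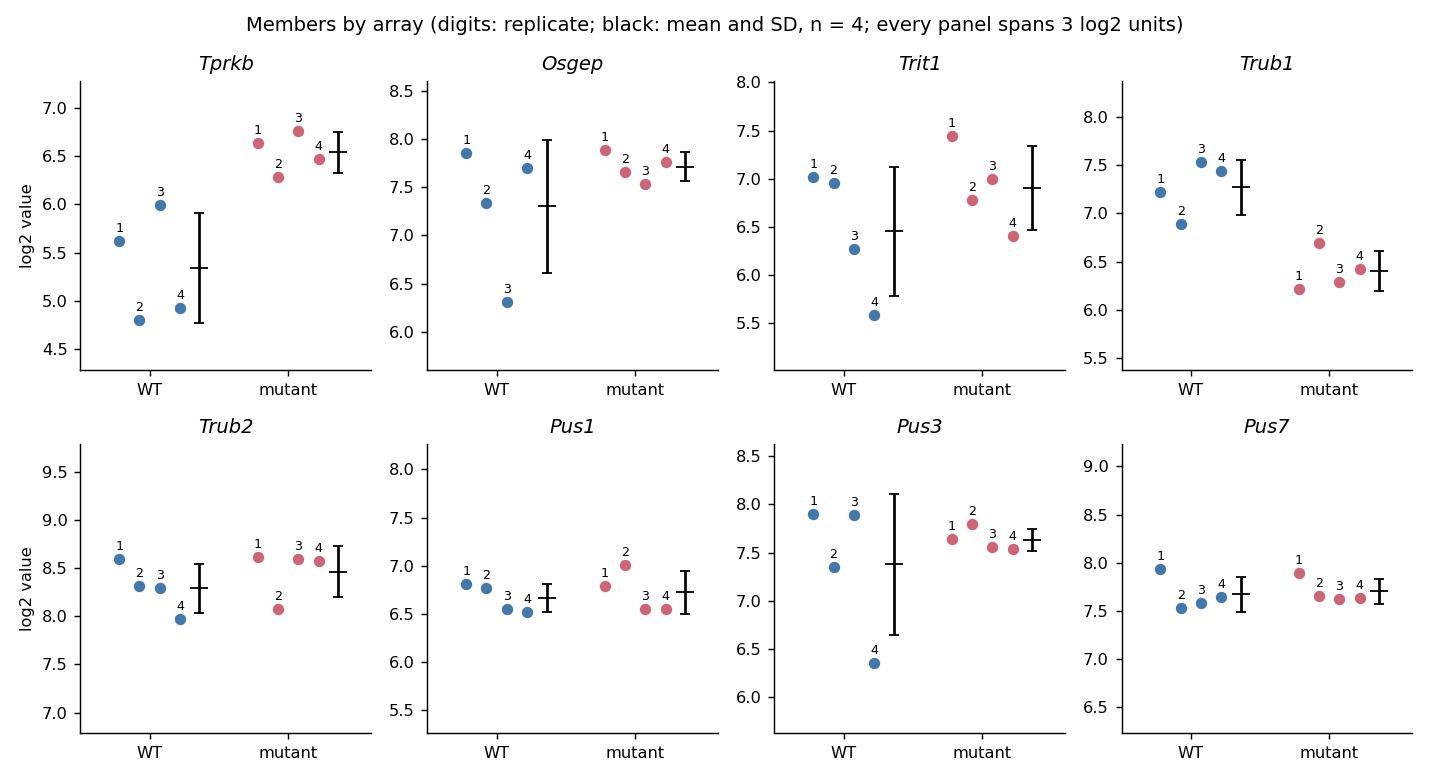
Log2 value (vertical axis) of each of the 8 members on each array, by genotype (horizontal axis), with digits for the replicate and black bars for the mean and SD of 4 embryos. Every panel spans the same range. The WT and mutant points do not overlap for Tprkb and Trub1, and overlap in the other 6 panels, where single WT arrays such as WT 3 for Osgep (6.31) and WT 4 for Pus3 (6.35) lie lowest.

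The catalytic partner of Tprkb did not separate the genotypes. Osgep, measured on the probe of highest mean, had log2 values of 7.86, 7.33, 6.31 and 7.70 in WT 1 to 4. In mutants 1 to 4 it had 7.89, 7.66, 7.53 and 7.76. The mutants were close to each other and WT 3 lay far below all other arrays. The difference of 0.41 (95% limma interval -0.23 to 1.05) dropped to 0.08 without WT 3 and to 0.06 without WT 3 and mutant 4. The drop was smaller on a second Osgep probe, from 0.49 to 0.32 without WT 3 and to 0.38 without both arrays. WT 3 was also the array with the lowest PGC and the highest erythroid, macrophage, hindgut endoderm and trunk mesenchyme marker means. The part of this in its Osgep value was not tested.

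The remaining subunits and partners of KEOPS were measured in 4 of 5 listed genes. Trp53rkb, a gene for the kinase-like subunit that Tprkb binds, had mean log2 values of 5.44 ± 0.22 in WT and 5.92 ± 0.48 in mutants (SD, n = 4 each). The difference was 0.48 (95% interval -0.03 to 0.98). Its values were 5.75, 5.59, 6.63 and 5.69 in mutants 1 to 4, so mutant 3 was highest, and the WT range of 5.13 to 5.62 overlapped it only at mutant 2. Without mutant 3 the difference was 0.24. Trp53rka, a second copy of this gene, was looked up after the values were seen. It had the higher level of the 2 copies, with means of 7.09 in WT and 7.31 in mutants. It differed by 0.23 (interval -0.30 to 0.76), and by -0.03 without WT 2. Lage3, a further subunit, differed by 0.02 (-0.61 to 0.64), Yrdc, which makes the threonylcarbamoyl donor, by 0.15 (-0.29 to 0.59), and Osgepl1, the mitochondrial counterpart of Osgep, by 0.41 (-0.04 to 0.87). All 4 listed genes were above 0, where 44.6% of all genes were, and none passed the limma test. Without WT 3, 3 of the 4 were above 0, with Lage3 at -0.05 and Yrdc at 0.0025.

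Trit1 overlapped between the genotypes but followed the somite number within both. Ordered from 21 somites upward, its log2 values were 5.59 in WT 4, 6.40 in mutant 4, 6.27 in WT 3, 6.78 in mutant 2 and 6.998 in mutant 3. The values at the later stages were 7.44 in mutant 1 at 24 somites, and 7.01 and 6.95 in WT 1 and WT 2 at 25. The lowest value thus came from the youngest embryo, and each mutant lay above the WT embryos of nearest stage. The slope with genotype in the model was 0.34 ± 0.05 log2 per somite (SE). Within WT it was 0.32 ± 0.05 and within mutants 0.42 ± 0.11. Leaving out single arrays gave 0.30 to 0.36.

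The genotype difference of Trit1 depended on whether stage was in the model. Without it the means were 6.46 ± 0.67 in WT and 6.91 ± 0.43 in mutants (SD, n = 4 each), a difference of 0.45 ± 0.32 (SE). With somite number as a covariate the difference was 0.62 ± 0.13 (SE). Without WT 4, the youngest embryo, and with no covariate it was 0.16. For Tprkb and Trub1 the covariate left the differences at 1.20 and -0.93.

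The other members had shallower slopes on somite number, again in log2 per somite with genotype in the model. Pus3 had 0.16 ± 0.10 (SE), which was -0.05 without WT 4, and Osgep had 0.09 ± 0.10, which ran from -0.01 without WT 3 to 0.29 without WT 4. Trub2 was at 0.09 ± 0.06, Pus1 at 0.07 ± 0.05 and Pus7 at 0.04 ± 0.05. Trub1 had the lowest slope of the 8, -0.11 ± 0.05, and Tprkb, at -0.0019 ± 0.09, ran from -0.14 without WT 4 to 0.10 without WT 2.

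**Figure D2:**
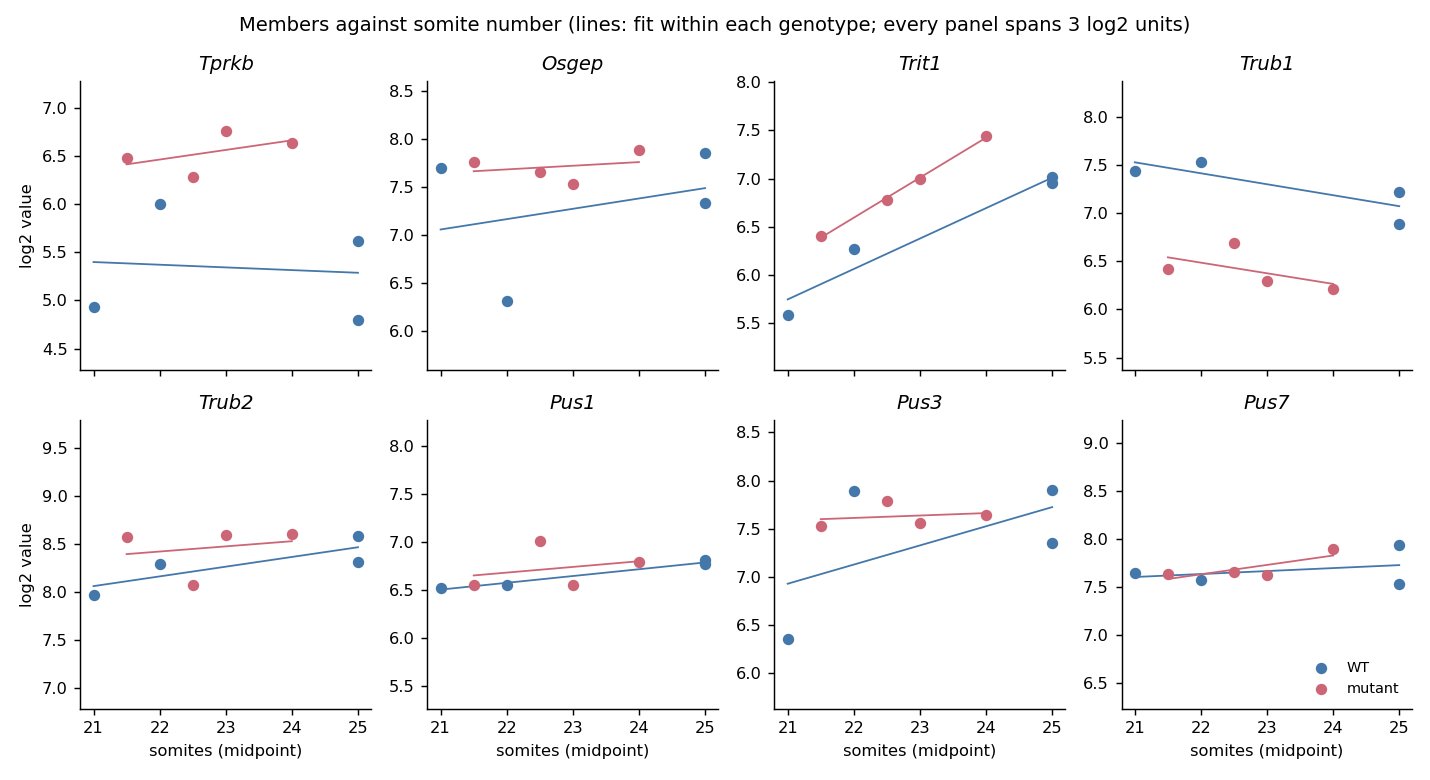
Log2 value of each member (vertical axis) against the somite number of the embryo (horizontal axis, midpoint where a range is given), with a straight line fitted within each genotype. Every panel spans the same range. Trit1 rises along both lines, by 0.32 per somite in WT and 0.42 in mutants. For Tprkb and Trub1 the points of the genotypes do not overlap. The Trub1 lines have slopes of -0.11 in both genotypes, and the WT points of Tprkb scatter from 4.80 to 5.998.

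Among the other pseudouridine synthases the genotypes overlapped. Trub2, the mitochondrial relative of Trub1, had log2 values of 8.59, 8.31, 8.29 and 7.97 in WT 1 to 4, and 8.61, 8.07, 8.60 and 8.57 in mutants 1 to 4. In mutants it was even but for mutant 2, and it differed by 0.17 (95% limma interval -0.22 to 0.56), where Trub1 differed by -0.87. Pus1 had values of 6.81, 6.77, 6.55 and 6.52 in WT and 6.79, 7.01, 6.55 and 6.55 in mutants. Its means were nearly equal, 6.66 and 6.72, and the interval for the difference ran from -0.27 to 0.39.

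Pus3 had log2 values of 7.90, 7.35, 7.89 and 6.35 in WT 1 to 4, and 7.64, 7.79, 7.56 and 7.53 in mutants 1 to 4. WT 4 lay 1 log2 unit below the rest, and the difference of 0.25 (95% limma interval -0.41 to 0.92) turned to -0.09 without it. Pus7, on its probe of highest mean, had values of 7.94, 7.53, 7.58 and 7.65 in WT and 7.90, 7.66, 7.63 and 7.64 in mutants, a difference of 0.03 (interval -0.27 to 0.34). On this probe Pus7 varied least of the 8, with a pooled SD of 0.16, and Trit1 most, with 0.56. The median of all genes was 0.24. The other 2 Pus7 probes varied more, with SDs of 0.55 and 0.48 in WT and 0.37 and 0.29 in mutants.

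A further 8 pseudouridine synthases were fixed as a list, and none of them passed the limma test or separated the genotypes. On the log2 scale, mutant minus WT, Pusl1 differed by -0.42 (95% interval -1.03 to 0.18), and by -0.24 without WT 3 and -0.22 without mutant 2. Pus10, which acts on tRNA in the same loop as Trub1, differed by 0.20 (-0.48 to 0.89), but by -0.17 without WT 4. The others lay closer to 0: Dkc1, the synthase of the small nucleolar RNA machinery, at 0.03, Rpusd3 at 0.04, Rpusd4 at -0.01, Rpusd1 at -0.02, Pus7l at -0.07 and Rpusd2 at -0.09. Of these 8 genes, Pusl1 alone kept its sign whichever single array was left out.

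**Figure D3:**
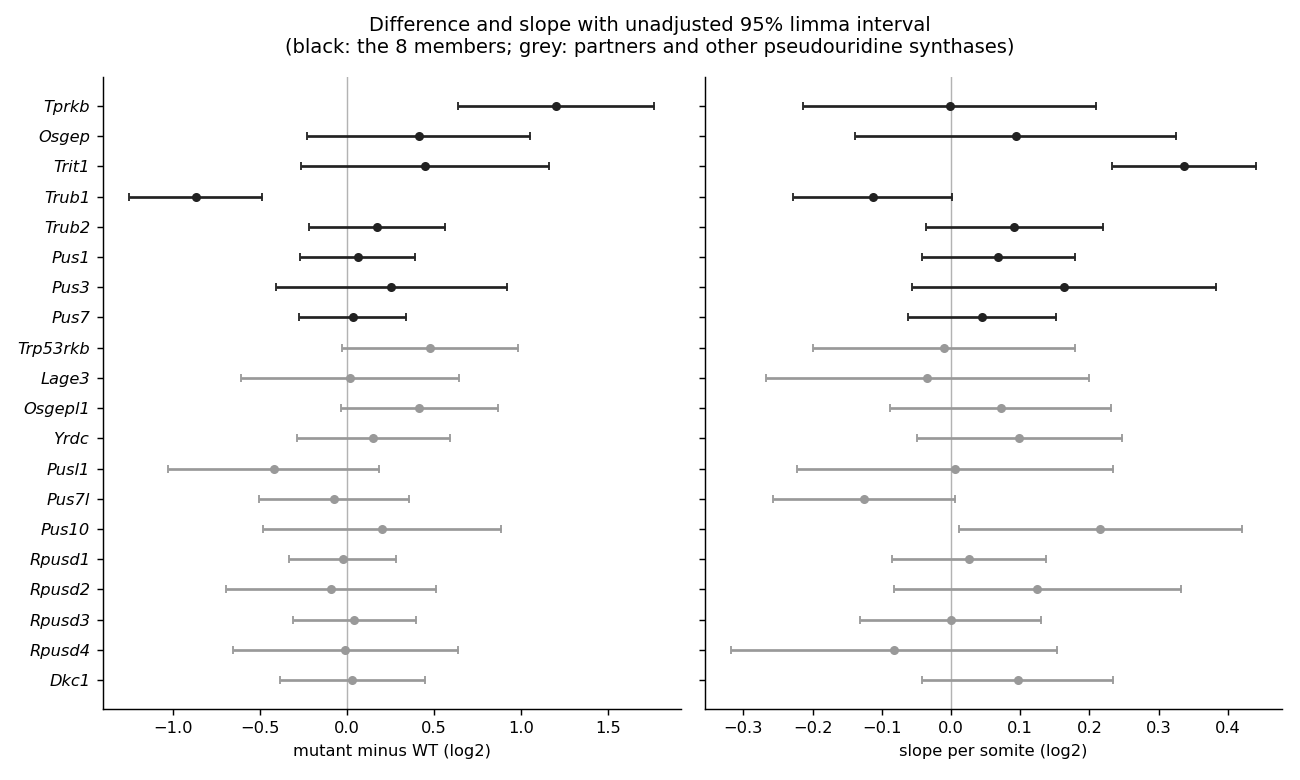
Difference between mutant and WT (left, log2) and slope per somite (right, log2) for the 8 members (black), the KEOPS partners and the other pseudouridine synthases (grey), with unadjusted 95% limma intervals. Tprkb (1.20) and Trub1 (-0.87) lie furthest from 0 on the left and Trit1 (0.34) on the right.

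Osgep and Pus7 have more than 1 probe, and the probes did not tell the same story for Pus7. The 2 Osgep probes followed each other over the 8 arrays (Pearson r = 0.87, exact permutation p = 0.0031, adjusted over 4 probe pairs 0.0062; Spearman rho = 0.83, exact p = 0.0154, adjusted 0.031). The relation rests on WT 2 and WT 3 together, since r was 0.45 without both, and it was 0.79 without WT 3 and 0.91 without WT 2. The second Osgep probe gave a genotype difference of 0.49 ± 0.23 (SE), beside 0.41 on the first. Without WT 3 the second gave 0.32 and the first 0.08. For Pus7, the other 2 probes followed each other closely (r = 0.99, exact permutation p = 7.4e-05, adjusted 0.0003; rho = 0.98, exact p = 0.0004, adjusted 0.0016), and r stayed at 0.97 without the 2 arrays farthest from the median. The first probe followed neither, with r of -0.08 and 0.04 (exact permutation p = 0.823 and 0.913, adjusted 0.913 for both; rho = 0.12 and 0.10, exact p = 0.793 and 0.840, adjusted 0.840 for both). Without WT 1 and mutant 1 these were 0.05 and -0.01.

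The second Pus7 probe had log2 values of 6.95, 7.37, 6.20 and 7.35 in WT and 6.60, 7.30, 6.53 and 6.55 in mutants, and differed by -0.23 ± 0.28 (SE), against 0.03 ± 0.14 on the first. It was lowest in WT 3, as Osgep was. All 3 Pus7 probes carry the same gene and accessions in the platform's annotation. Which of them measures Pus7 was not tested, so the values of Pus7 are uncertain.

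**Figure D4:**
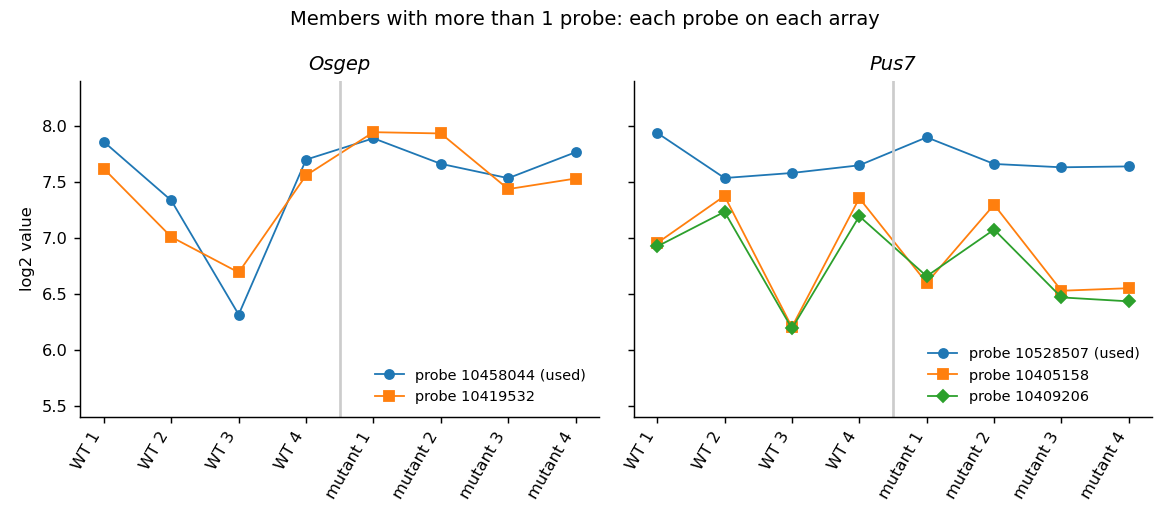
Log2 value (vertical axis) of every probe of Osgep (left) and Pus7 (right) on each of the 8 arrays (horizontal axis). The 2 Osgep probes dip together in WT 3, and the lower 2 Pus7 probes move together (r = 0.99) but not with the upper one.

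Whether the slopes on somite number differed between the genotypes was tested with an interaction term, which played no part in choosing the members. None of the 8 members passed: the limma adjusted p was 0.999 for each. The slope of Trit1 was 0.10 steeper in mutants, with a 95% interval from -0.17 to 0.37 per somite. The slope of Trub1 differed by 0.00 (interval -0.31 to 0.31), being -0.11 in both genotypes, and that of Tprkb by 0.13 (-0.42 to 0.68). The intervals of Osgep (-0.68 to 0.54) and Pus3 (-0.74 to 0.39) were the widest together with that of Tprkb. Over all genes 0 of 19938 passed, and 902 (4.52%) had an unadjusted p under 0.05, with a steeper slope in mutants for 2.14% and a lower one for 2.38% of all genes. No member was among the 902. Of the 71 other tRNA modification genes described further on, 3 were steeper and 3 lower at that threshold.

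The other comparisons called as little. For mutant against WT, limma called 0 of 19938 genes (0%), and 934 (4.68%) had an unadjusted p under 0.05, higher in mutants for 2.72% (Tprkb among the members) and lower for 1.96% (Trub1). For the slope, limma called 0 genes (0%), and 1942 (9.74%) had an unadjusted p under 0.05, among them Trit1. These contrasts chose the members, so nothing is read from the counts.

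The wider set of tRNA modification genes was described from a list of 75, of which 71 had a single-gene probe. For mutant against WT none passed the limma test, 46 of 71 (64.8%) had a difference above 0, and the list's median was 0.05. The share over all genes was 44.6% and their median -0.02. After median centring the shares were 74.6% of the list and 58.2% of all genes, after quantile normalization 69% and 52.3%, and among genes above the median level 63.9% and 57.4%. Without WT 3 only 28 of the 71 (39.4%) lay above 0, against 50.2% of all genes, and the part of the marker levels of WT 3 in this was not tested. At an unadjusted p under 0.05, 2.72% of all genes were higher and 1.96% lower in mutants. Of the 71, 1 was higher and 0 were lower, so the list did not exceed these shares. That gene was Ctu2, which with Ctu1 thiolates the wobble uridine, with log2 values of 6.50, 6.16, 6.15 and 6.95 in WT and 6.96, 6.83, 7.99 and 6.84 in mutants and a difference of 0.72 ± 0.28 (SE). Mutant 3 was its highest array by far, the groups overlapped at WT 4, and the difference was 0.44 without mutant 3. The lower gene of smallest p was Mettl6, a methyltransferase of serine tRNA, at -0.61 ± 0.31, and at -0.31 without mutant 4.

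For each remaining class the gene of highest mean stands as an example, given as the log2 difference between mutant and WT. Of 11 measured genes of Elongator and cytosolic wobble uridine modification, 9 lay above 0, and Trmt112, an activator of several methyltransferases, differed by -0.06 ± 0.27 (SE). Without WT 3, 7 of the 11 did. Of 25 methyltransferases, 12 lay above 0, and 8 without WT 3, with Nsun2, which makes 5-methylcytosine, at 0.11 ± 0.18. All 3 genes of mitochondrial wobble uridine lay above 0, but 1 of the 3 without WT 3, with Gtpbp3 at 0.01 ± 0.16. Lcmt2 of wybutosine synthesis was at -0.12 ± 0.23, Adat2, a subunit of the inosine-forming deaminase, at -0.12 ± 0.30, and Dus3l, a dihydrouridine synthase, at -0.03 ± 0.18. Cdkal1, which adds methylthio groups beside the anticodon, was at -0.10 ± 0.17, Qtrt1 of queuosine exchange at 0.08 ± 0.16, and the RNA acetyltransferase Nat10 at 0.06 ± 0.22. Of these 9 examples, Cdkal1 alone kept its sign whichever single array was left out.

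On somite number, most of the tRNA modification genes had positive slopes. Of the 71 other listed genes, 53 (74.6%) lay above 0 with a median slope of 0.08 log2 per somite, where 40.5% of all genes did, with a median of -0.02. Among genes above the median level, 48 of 61 listed genes (78.7%) and 58.6% of all genes lay above 0. After median centring the shares were 83.1% and 52.5%, and after quantile normalization 76.1% and 42.3%. Leaving out single arrays kept the listed share between 66.2% and 78.9%. None of the 71 passed the limma test over all genes.

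At an unadjusted p under 0.05, 10 of the 71 had a positive and 2 a negative slope, beside 5.02% and 4.72% of all genes. Among genes above the median level, 8 of 61 listed genes had a positive and 1 a negative slope at that threshold. Of all 9969 genes above that level, 800 had a positive and 246 a negative slope, so positive slopes were the more frequent there too. Qtrt2, the partner of Qtrt1 in the enzyme that inserts queuosine, had the slope nearest to that of Trit1, 0.32 ± 0.06 log2 per somite (SE; limma adjusted p = 0.255). Its values were 8.14, 7.77, 6.74 and 6.93 in WT 1 to 4 and 7.98, 7.27, 7.61 and 7.02 in mutants 1 to 4, so the embryos of 24 and 25 somites were the 3 highest. Thg1l, which adds a guanosine to histidine tRNA, had 0.29 ± 0.07 and Nat10 0.22 ± 0.04 (adjusted p = 0.388 and 0.280). Pus10 (0.22 ± 0.09) was the only other synthase among the 10, and its slope was 0.01 without WT 4. The negative slopes were those of Ctu1 (-0.15 ± 0.05) and the methyltransferase gene Trmt10b (-0.16 ± 0.07), with adjusted p of 0.474 and 0.510, and that of Trmt10b was -0.09 without WT 4.

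**Figure D5:**
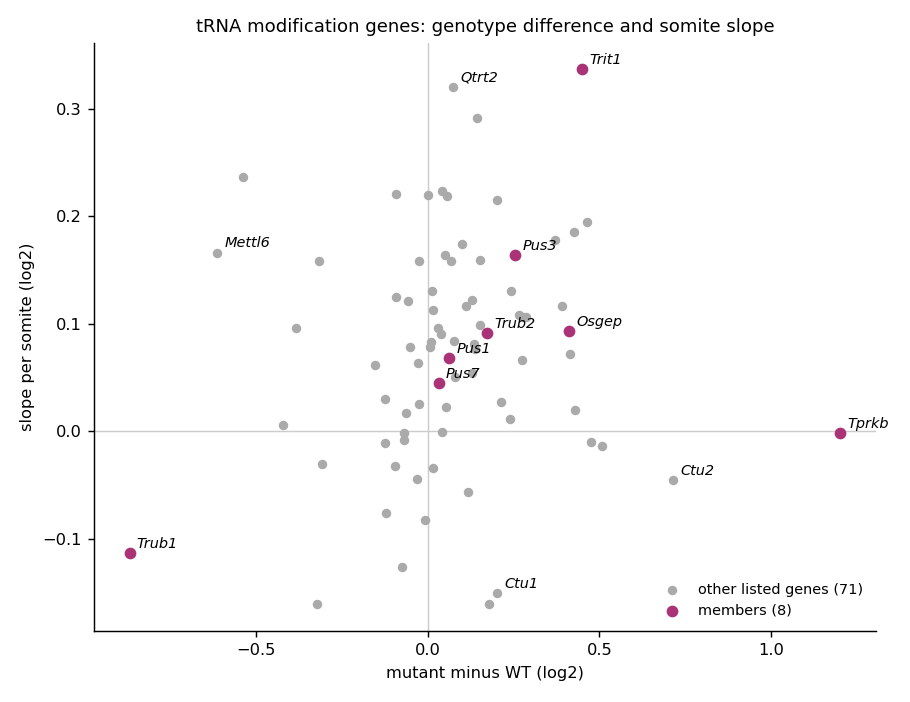
Difference between mutant and WT (horizontal axis, log2) against slope per somite (vertical axis, log2) for the 8 members (purple) and 71 other tRNA modification genes (grey). Tprkb at 1.20 and Trub1 at -0.87 lie at the horizontal ends of the cloud, Trit1 at 0.34 and Qtrt2 at 0.32 at its top.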

How the data were processed

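RNA of sorted PGCs was amplified, labelled with biotin and hybridised, 1 array per embryo, per the labels. For every array the authors deposited 1 value per probe. How they corrected background and normalized is not stated in the labels. The deposited values were taken as log2 from their range (0.99 to 13.83) and used as deposited. With no scanner values, detection was not assessed.

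Of 35557 probes, 21789 carry 1 gene symbol in the platform's annotation, 1621 several and 12147 none here. Each of 19938 genes was represented by its probe of highest mean (999 genes have several). By gene ID, 21698 probes matched the RefSeq table (GRCm38.p6), used only for names, neighbours and start windows. Trp53rk was found as Trp53rkb through its synonym.

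All genes were fitted with limma 3.58.1 in R 4.3.3 (lmFit, eBayes), p adjusted by Benjamini-Hochberg across the 19938 genes (threshold 0.05), for genotype, for somite number (midpoint of a range) with genotype as a term, and for their interaction. Intervals cover 95% and are unadjusted. The scripts were tested on simulated data. Alternatives were scaling, filter, probe rule, left-out arrays, variance model, array weights, covariates and a replicate block. Left-out-array values of the other tRNA modification genes and of single probes were added after seeing the data. The number of arrays limits the precision.

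The members and lists were chosen with earlier results of these data known. Named genes were the members, the measured KEOPS and pseudouridine synthase genes, the gene of highest mean of each other class, the gene of smallest p per direction, and, for Tprkb, Trub1 and Trit1, the 3 genes of most similar pattern and the nearest measured neighbours. Genes named outside this rule (Trp53rka, Thg1l and Trmt10b) were chosen after their values were seen.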

Additional observations from a re-analysis of the deposited data

Results flagged for a closer look

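Of 22 sets of 4 values (11 probes of the 8 members in 2 groups), 3 held an array whose gap to the nearest other, as a share of the range, exceeded Dixon's 95% critical value, which chance does in about 1 in 20. Trub2 was low in mutant 2, at 8.07, with the other mutants from 8.57 to 8.61. Pus7 on its first probe was high in mutant 1, at 7.90, with the others from 7.63 to 7.66. On its second probe Pus7 was high in mutant 2, at 7.30, with the others from 6.53 to 6.60, so the array that stood apart differed between probes of 1 gene.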

How the results depend on the processing

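No gene was called for mutant against WT in 17 alternatives, the replicate block included (0 calls), nor for the slope difference in 15. For the slope, leaving out single arrays gave 0 to 2 called genes, the upper somite value 1, and leaving out WT 3 and mutant 4 together 5; no member was among the called genes in any alternative. Genes at an unadjusted p under 0.05 ran from 538 (only genes above the median level, so fewer tested) to 1715 (without WT 1) for genotype, from 1046 to 2318 for the slope and from 546 to 1113 for the slope difference. Tprkb, Osgep, Trub1, Trub2 and Trit1 kept the sign of their genotype difference in all 17. Pus1 turned to -0.03 and Pus3 to -0.09 at the lowest without 1 array. Pus7 kept its sign in 12 of 17, and was -0.14 as the mean of its 3 probes, -0.019 with quantile normalization and -0.032 without mutant 1. Slope differences changed sign as follows. Leaving out WT 3 and mutant 4 together, Osgep was at 0.21, Trub1 at -0.19 and Trub2 at 0.19. With array weights, whose fit stopped before full convergence, Tprkb was at -0.0085 and Trub1 at -0.088. With the mean of all probes Osgep was at 0.017 and Pus7 at -0.020, with quantile normalization Pus1 was at 0.0016, and with median centring Trub1 was at -0.00041. Without single arrays they ran from -0.0041 to 0.36 for Tprkb, -0.39 to 0.074 for Osgep, -0.17 to 0.078 for Trub1, -0.16 to 0.21 for Trub2, -0.16 to 0.020 for Pus1, -0.29 to 0.11 for Pus3 and -0.032 to 0.14 for Pus7. Beyond what fewer arrays or genes explain by construction, the cause was not tested. Whether same-numbered WT and mutant embryos shared more than a number is not stated. Their deviations from the group means correlated at -0.05, 0.04, -0.19 and 0.10, which cannot settle it. With the replicate block the differences were 1.20 ± 0.18 for Tprkb and -0.87 ± 0.20 for Trub1 (SE), where the SE without it was 0.25 and 0.17.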

Other observations

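The SD of the log2 values was wider in WT for 6 of the 8 members, with a median of 0.43 in WT and 0.21 in mutants (log2), and for 59.2% of all genes, with medians of 0.25 and 0.21. Trub2 (SD 0.25 in WT and 0.26 in mutants) and Pus1 (0.15 and 0.22) went the other way. Osgep (SD 0.69 and 0.15) and Pus3 (0.73 and 0.12) had the largest gaps, with WT 3 and WT 4 lying lowest, respectively. Without WT 3 the SD was wider in WT for 7 of 8 members and 51.9% of all genes, and without WT 4 for 5 of 8 and 57.2%. The WT embryos also spanned 21 to 25 somites, against 21.5 to 24 in mutants, and the part of stage in this spread was not tested.

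Among 9573 named genes above the median level, those whose pattern over the 8 arrays was most like that of Tprkb were Epb41l4a (Pearson r = 0.94), Ankrd13a (0.94) and Klhl24 (0.93), with genotype differences of 0.65, 0.45 and 0.50 on the log2 scale. For Trub1 they were Ifi27l2b (0.94), Oaf (0.92) and Cdsn (0.92), whose differences of -0.30, -0.21 and -0.22 were smaller than that of Trub1. For Trit1 they were Osgin2 (0.98), Tmem59 (0.98) and Mrpl32 (0.97), with slopes of 0.33, 0.36 and 0.20 per somite. These are the extremes of a search over many genes and share the 8 arrays.

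The nearest measured genes beside Tprkb, Trub1 and Trit1 overlapped between the genotypes. Beside Tprkb, Nat8f1 differed by -0.06 ± 0.16 (log2, SE) and Dusp11 by 0.13 ± 0.15. Beside Trub1, Fam160b1 differed by 0.03 ± 0.13 and Atrnl1 by -0.34 ± 0.21. Beside Trit1, Mycl and Bmp8b had slopes of 0.01 ± 0.05 and -0.05 ± 0.05 per somite, where Trit1 had 0.34 ± 0.05.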
